A study of Mus musculus with 4 samples.

Results

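Histone transcripts were measured in total RNA of sorted mouse islet cells. The members were the gene rows whose symbol names a histone, either a replication-dependent histone of the clusters Hist1 to Hist4 or a replacement histone (H2af, H3f3 or H1f), without symbols marked -ps for pseudogenes, that reached 1 FPKM in at least one library. FPKM is a fragment count divided by transcript length and by the size of the library. Of 39170 gene rows, 86 carried such a symbol, 69 replication-dependent and 17 replacement, and 68 reached the threshold, 57 and 11 of the classes. One of the 11, H2afy3, is annotated as a processed pseudogene in GENCODE release M21. Of the 18 others, Hist1h2ah, at up to 0.709 FPKM, came closest to the threshold, and the lowest members were Hist1h2bn, at up to 1.29 FPKM, and Hist1h2ad, at up to 1.37 FPKM.

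Mice of the strain MIP-GFP C57BL/6 were used, all male and 6 to 8 weeks old, whose transgene, driven by the mouse insulin 1 promoter, marks insulin-expressing cells with green fluorescent protein. Streptozotocin (STZ), a DNA-alkylating beta cell toxin, was injected intraperitoneally at 200 mg/kg in citrate buffer, with diabetes by day 4, and the control mice received vehicle, with 3 mice per treatment. Insulin-positive cells were sorted by the surface glucose transporter Glut2 into a low (Glut2L) and a high (Glut2H) gate, which gave the groups Glut2L STZ, Glut2L control, Glut2H STZ and Glut2H control, each with 1 library. No spread within a group can be had, so nothing was tested and each comparison is between single libraries. The sources used here do not say whether RNA of the mice was pooled.

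Nucleosomes wrap DNA around the core histones H2A, H2B, H3 and H4, and linker histone H1 binds where the DNA enters and leaves. Replication-dependent histone genes lie in clusters, lack introns in most cases and are transcribed mainly in S phase. Their mRNAs end in a conserved stem-loop bound by SLBP, the stem-loop binding protein, in place of a poly(A) tail, so total RNA libraries capture them and poly(A) selection does not. Replacement histones are made through the whole cell cycle from polyadenylated mRNAs. They are the main source of new histone in cells that have left the cycle, as most adult beta cells have.

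The gates did not follow their labels at the RNA level. Slc2a2, which encodes Glut2, stood at 33.7 FPKM (STZ) and 40.96 FPKM (control) in the libraries labelled Glut2L, against 10.8 FPKM (STZ) and 8.74 FPKM (control) in those labelled Glut2H. The libraries are therefore named by their labels, and each direction is one between libraries so labelled. Summed FPKM of 8 stromal markers came to 22.3 (STZ) and 61.3 (control) in the libraries labelled Glut2L, against 757 (STZ) and 893 (control) in those labelled Glut2H. For 12 leukocyte markers the sums were 99.6 (STZ) and 72.9 (control) in the libraries labelled Glut2L, against 3168 (STZ) and 2970.3 (control) in those labelled Glut2H, with Cd3e listed at 0 in both Glut2L libraries. For 8 endothelial markers they were 14.7 (STZ) and 33.8 (control) in Glut2L, against 244 (STZ) and 265 (control) in Glut2H, and for 10 beta cell markers 209247 (STZ) and 338005 (control) in Glut2L, against 67187 (STZ) and 71079 (control) in Glut2H. The part of these other cell types in the histone differences between gates was not tested, and in such bulk samples fewer cells of a type and less RNA per cell cannot be told apart. Between 13714 and 14425 rows per library reached 1 FPKM, and the number of reads is unknown. One row, Gm20594, took 68.5% (STZ) and 61.0% (control) of the FPKM sum in the libraries labelled Glut2H, so that giving all libraries an equal sum would multiply every level in Glut2L relative to Glut2H and move the median log2 ratio of all rows to 1.06 in STZ mice and 0.76 in control mice. Levels and orders of libraries are given as deposited, and this scaling turns some orders between the gates round. Where equal sums are named below without further words, this scaling over all rows is meant. Scaling to equal sums without the highest rows used factors of 0.969 to 1.02. The median log2 ratio of all rows was then 0.10 in STZ mice and 0.07 in control mice.

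The stem-loop was looked for in the mature transcripts of GENCODE release M21 (GRCm38), because it is the feature that sets the mRNA classes apart. The search used the sense strand and a pattern of 16 bases, in which positions 4, 9, 10 and 13 could be any base, and the forms found in members are spelled out after the examples. A match was found in 37 of the 57 replication-dependent members and in 1 of the 11 replacement members, H2afx, and in 53 of 55450 annotated genes (0.0956%). The 8 examples below are H2afx and members with a match that were high in their families, 5′ to 3′, with the stem-loop in capitals and 5 transcript bases on either side. Outside positions 4, 9, 10 and 13 the pattern fixed the capital letters, so their likeness in linker and core histone mRNAs follows from the search.
Hist1h1e: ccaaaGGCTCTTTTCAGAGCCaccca
Hist1h1c: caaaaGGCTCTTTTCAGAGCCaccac
Hist1h4d: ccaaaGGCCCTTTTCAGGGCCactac
Hist1h4c: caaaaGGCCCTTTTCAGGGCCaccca
Hist1h2bf: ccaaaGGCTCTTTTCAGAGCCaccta
Hist2h2ac: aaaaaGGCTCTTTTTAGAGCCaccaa
Hist1h3e: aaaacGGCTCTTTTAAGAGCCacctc
H2afx: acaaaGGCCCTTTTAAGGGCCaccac
Among replication-dependent members the form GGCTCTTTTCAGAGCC occurred in 22, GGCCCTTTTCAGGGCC in 6, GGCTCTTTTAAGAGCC in 6, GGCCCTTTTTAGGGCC in 2 and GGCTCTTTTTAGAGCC in 1, and H2afx had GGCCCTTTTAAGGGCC. Many annotated histone transcripts stop at the stop codon, so an absent match says only that these letters are not in the annotated transcript. In 16 members the annotated transcript ran on at least 200 bases past the stem-loop, and in 21 it ended sooner. Members of the first kind had a median of 12.8 FPKM in Glut2L STZ, 7.83 FPKM in Glut2L control, 5.92 FPKM in Glut2H STZ and 5.79 FPKM in Glut2H control. Members of the second kind had medians of 4.90 FPKM, 1.26 FPKM, 1.62 FPKM and 0.529 FPKM in the same libraries. The split is by GENCODE transcript, and the deposited locus can be shorter. It spans 393 bp for Hist1h4d and 748 bp for Hist1h1e, against transcripts of 1138 and 1930 bases. The medians are therefore not levels of the sequence past the stem-loop.

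Promoters were compared over the 300 bases around each RefSeq start (GRCm38.p6), which 52 replication-dependent and 9 replacement members had. CCAAT on either strand was in 44 of the 52 and in 6 of the 9, against 41.1% of all genes with a promoter in the table. TATAAA on either strand was in 30 of the 52 and in 1 of the 9, against 15.7% of all genes. The octamer ATTTGCAT, in either orientation, was found in 6 of 13 H2B and 5 of 13 H2A promoters of replication-dependent members, in none of their H1, H3 or H4 promoters, and in 1 of the 9 replacement promoters (H3f3b), against 1.97% of all genes. AAACACA, the element known from H1 promoters, was in 5 of the 6 replication-dependent H1 promoters, against 8.22% of all genes. None of these motifs is part of another, and a match is a description of the letters alone. The promoters of Hist1h1c and Hist2h2bb are shown because these genes are among the 5 highest of the class and differed in opposite directions between the gates in the deposited values. Motifs are in capitals, ATTGG being CCAAT on the other strand.
Hist1h1c, chr13:23738557-23738856, plus strand: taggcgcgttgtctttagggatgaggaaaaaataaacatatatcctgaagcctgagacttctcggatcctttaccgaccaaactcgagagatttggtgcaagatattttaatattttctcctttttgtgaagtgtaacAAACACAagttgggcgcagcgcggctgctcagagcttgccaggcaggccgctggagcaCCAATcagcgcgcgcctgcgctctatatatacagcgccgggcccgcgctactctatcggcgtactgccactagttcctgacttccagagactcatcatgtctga
Hist2h2bb, chr3:96269450-96269749, plus strand: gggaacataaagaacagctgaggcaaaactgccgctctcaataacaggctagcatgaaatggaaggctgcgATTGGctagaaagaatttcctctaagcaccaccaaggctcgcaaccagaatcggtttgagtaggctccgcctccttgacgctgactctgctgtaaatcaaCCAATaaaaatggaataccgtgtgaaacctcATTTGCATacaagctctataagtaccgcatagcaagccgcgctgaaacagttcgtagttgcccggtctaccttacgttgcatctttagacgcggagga

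Replication-dependent histones were most abundant in the Glut2L STZ library. Their summed level, over all 69 rows, was 2167 FPKM (STZ) and 1660.2 FPKM (control) in the libraries labelled Glut2L, against 1259.9 FPKM (STZ) and 1304 FPKM (control) in those labelled Glut2H. The 17 replacement rows summed to 1085 FPKM (STZ) and 1147 FPKM (control) in Glut2L, against 981 FPKM (STZ) and 844 FPKM (control) in Glut2H. The replication-dependent sum was thus 1.997 times the replacement sum in Glut2L STZ and 1.45 times in Glut2L control, against 1.28 times in Glut2H STZ and 1.54 times in Glut2H control. This ratio is taken within a library and so does not depend on the scaling between libraries. Glut2L STZ was also the library in which 32 of the 57 replication-dependent members were highest, with 8 highest in Glut2L control, 14 in Glut2H STZ and 3 in Glut2H control. These are 56.1%, 14.04%, 24.6% and 5.26% of the members, against 28.6%, 27.96%, 19.95% and 23.5% of all rows in the same libraries, and Glut2L STZ was highest for 28.99% of rows with loci under 1000 bp. Of the 11 replacement members, 4 were highest in Glut2L STZ, 4 in Glut2L control and 3 in Glut2H STZ.

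**Figure D1:**
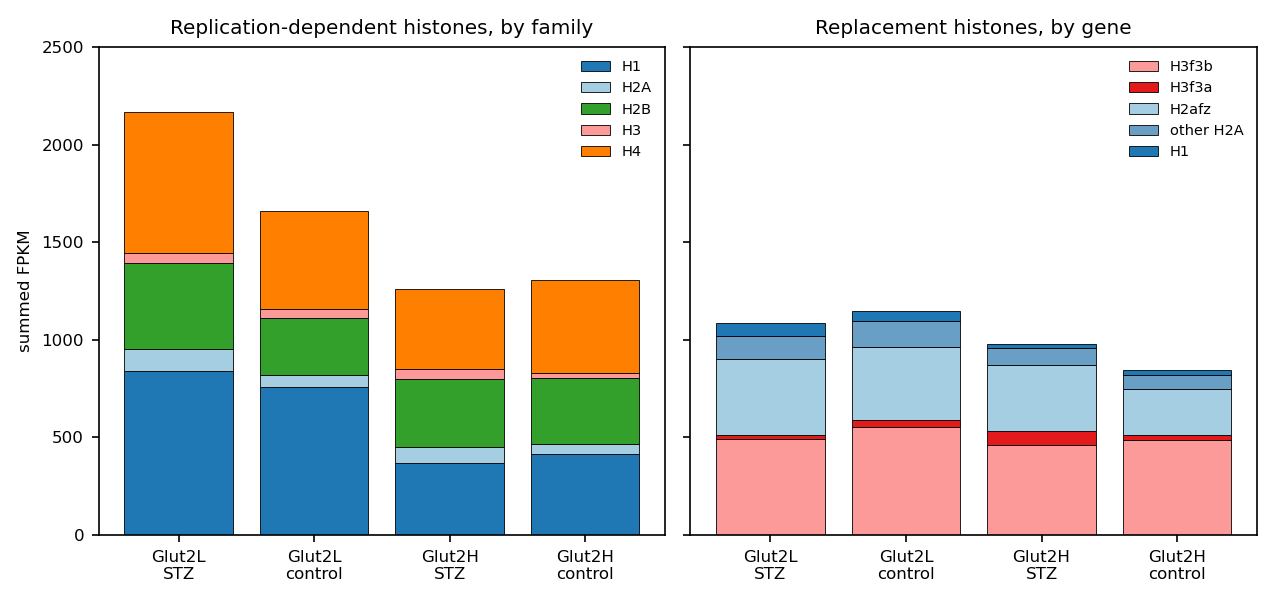
Summed FPKM (vertical axis, linear from 0) of replication-dependent histones by family (left) and of replacement histones by gene (right) in the 4 libraries, 1 bar per library with no error, since there is 1 library per group. The replication-dependent bar is highest in Glut2L STZ at 2167 FPKM, and H1 and H4 make up most of it in every library, while H3f3b and H2afz make up most of the replacement bar.

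A few genes carried these sums. The 5 highest replication-dependent genes took 70.1% of the class sum in Glut2L STZ, 74.8% in Glut2L control, 73.2% in Glut2H STZ and 77.1% in Glut2H control, and they were the same 5 in each library: Hist1h1e, Hist1h4d, Hist1h4c, Hist2h2bb and Hist1h1c. By family, H1 summed to 839.6 FPKM (STZ) and 756 FPKM (control) in Glut2L, against 368 FPKM (STZ) and 417 FPKM (control) in Glut2H. H4 summed to 724 FPKM (STZ) and 501 FPKM (control) in Glut2L, against 410.0 FPKM (STZ) and 473 FPKM (control) in Glut2H. H2B came to 440.1 FPKM (STZ) and 289 FPKM (control) in Glut2L, against 346 FPKM (STZ) and 335 FPKM (control) in Glut2H. H2A and H3 were far lower: the 20 H2A rows summed to 115 FPKM (STZ) and 65.2 FPKM (control) in Glut2L, against 82.9 FPKM (STZ) and 51.2 FPKM (control) in Glut2H. The 12 H3 rows summed to 47.9 FPKM (STZ) and 49.2 FPKM (control) in Glut2L, against 52.8 FPKM (STZ) and 27.2 FPKM (control) in Glut2H.

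Levels of the shortest genes are uncertain. Hist1h4d and Hist1h4c, the highest H4 genes, span loci of 393 and 395 bp in the deposited table, and the deposited level of Hist1h1e and Hist1h4d lay outside its own deposited interval in every library. Over the members this held for 6 rows in Glut2L STZ, 6 in Glut2L control, 2 in Glut2H STZ and 5 in Glut2H control, all of them replication-dependent. Coding sequences of the class are also near copies of each other. Of the 50-base windows of a member's GENCODE transcripts, a median of 44.1% occurred in the transcript of another gene for the replication-dependent class, with a range of 0% to 93.9%, and 23 of the 57 were above 50%. For replacement members the median was 6.14% and the highest 16.9%. The sources used here do not say how reads that match several copies were assigned, so single members with a high share are uncertain. Sums over a family or the class, and the shares and ratios taken from them, include such members and carry the same uncertainty. The shares are over whole GENCODE transcripts, and the deposited locus can be shorter. It spans 393 bp for Hist1h4d, whose transcript has 1138 bases. The share within the deposited locus was not counted, so a low share does not make a level certain.

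**Figure D2:**
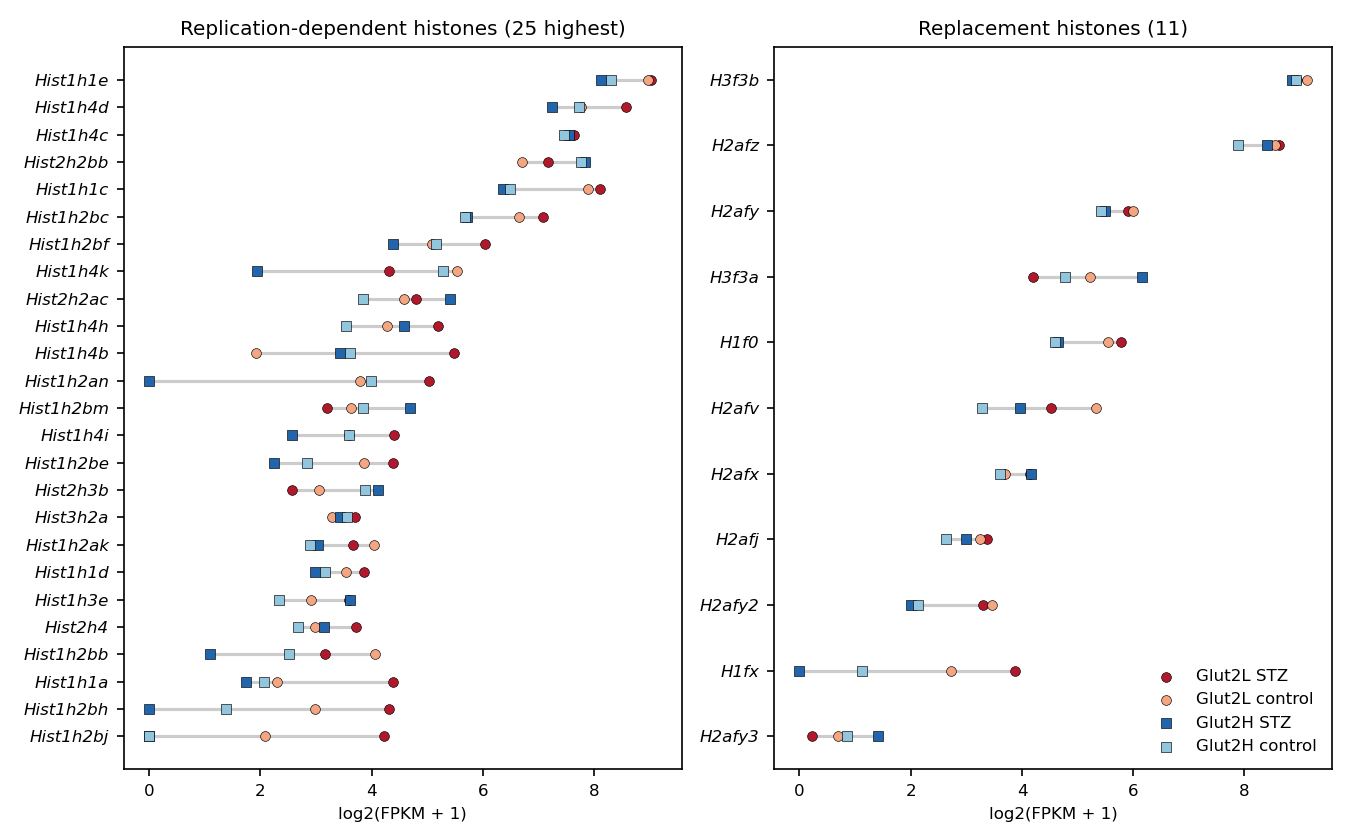
Level of the 25 highest replication-dependent members (left) and of the 11 replacement members (right), as log2(FPKM + 1) on the horizontal axis, with 1 point per library and a grey line over the range. Hist1h1c and Hist1h2bc have both Glut2L points to the right of both Glut2H points, Hist2h2bb the reverse (turned in STZ mice with equal library sums), and H3f3b and Hist1h4c vary little in these deposited values.

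Linker histones were higher in Glut2L than in Glut2H for all 6 genes in STZ mice and for 5 of 6 in control mice, against 55.5% and 54.1% of all rows higher in Glut2L at all. Hist1h1e (ENSMUSG00000051627, chromosome 13, 23620629 to 23622558, minus strand), which encodes H1.4 and was the highest replication-dependent gene in every library, stood at 522 FPKM (STZ) and 499 FPKM (control) in the libraries labelled Glut2L, against 276 FPKM (STZ) and 314 FPKM (control) in those labelled Glut2H. Hist1h1c (ENSMUSG00000036181, chromosome 13, 23738808 to 23740367, plus strand), which encodes H1.2, stood at 275 FPKM (STZ) and 236 FPKM (control) in the libraries labelled Glut2L, against 81.5 FPKM (STZ) and 88.4 FPKM (control) in those labelled Glut2H. Both Glut2L libraries were thus above both Glut2H libraries for each gene, and the log2 ratio for Hist1h1c was 1.74 in STZ mice and 1.41 in control mice. Of its windows 8.54% were shared with another gene, the least of the 5 highest genes.

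Hist1h1d, encoding H1.3, was lower in level, at 13.5 FPKM (STZ) and 10.6 FPKM (control) in the libraries labelled Glut2L, against 6.88 FPKM (STZ) and 7.93 FPKM (control) in those labelled Glut2H, with the same order of libraries. Hist1h1a, encoding H1.1, stood at 19.98 FPKM (STZ) and 3.92 FPKM (control) in the libraries labelled Glut2L, against 2.36 FPKM (STZ) and 3.21 FPKM (control) in those labelled Glut2H, and Hist1h1b, encoding H1.5, at 5.39 FPKM (STZ) and 2.57 FPKM (control) in the libraries labelled Glut2L, against 1.09 FPKM (STZ) and 3.17 FPKM (control) in those labelled Glut2H. Glut2L STZ was the highest library for both, far above the other libraries for Hist1h1a and less so for Hist1h1b, and none of their windows was shared (0%). Hist1h1t, the testis linker histone, was at 3.87 FPKM (STZ) and 4.09 FPKM (control) in Glut2L and listed at 0 in both Glut2H libraries.

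The mix of linker transcripts differed between the gates. Hist1h1c made up 30.3% of all H1 transcripts (both classes, by FPKM) in Glut2L STZ and 29.2% in Glut2L control, against 20.8% in Glut2H STZ and 20.03% in Glut2H control. Hist1h1e made up 57.5% and 61.8% in Glut2L STZ and Glut2L control, against 70.5% and 71.2% in Glut2H STZ and Glut2H control. Replacement H1 genes added 7.46% and 6.34% in Glut2L STZ and control and 6.11% and 5.54% in Glut2H STZ and control.

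Among H2B genes the 2 highest differed in opposite directions between the gates in the deposited values. Hist1h2bc (ENSMUSG00000018102, chromosome 13, 23684199 to 23692908, plus strand), whose mRNA is known also in polyadenylated form, was at 135 FPKM (STZ) and 98.8 FPKM (control) in the libraries labelled Glut2L, against 51.6 FPKM (STZ) and 49.96 FPKM (control) in those labelled Glut2H. Hist2h2bb (ENSMUSG00000050936, chromosome 3, 96269721 to 96279001, plus strand) was at 143 FPKM (STZ) and 104 FPKM (control) in the libraries labelled Glut2L, against 226 FPKM (STZ) and 217 FPKM (control) in those labelled Glut2H. Both Glut2H libraries thus exceeded both Glut2L libraries for Hist2h2bb, but with equal library sums the ratio of Glut2L to Glut2H turned to 1.38 in STZ mice, while it remained below 1 in control mice at 0.846. Without the highest rows in the sums the ratio was 0.603 in STZ mice and 0.463 in control mice. GENCODE M21 classes Hist2h2bb as a lincRNA with no stem-loop in its transcript, and the deposited row shares its locus with the neighbouring Hist2h3b, an H3 gene at 4.93 FPKM (STZ) and 7.26 FPKM (control) in the libraries labelled Glut2L, against 16.3 FPKM (STZ) and 13.7 FPKM (control) in those labelled Glut2H. Hist1h2bf stood at 65.1 FPKM (STZ) and 33.05 FPKM (control) in the libraries labelled Glut2L, against 19.9 FPKM (STZ) and 34.6 FPKM (control) in those labelled Glut2H, with 65.8% of its windows shared.

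Of the 12 H2B members below these 3, 3 were listed at 0 in both libraries of a gate, namely Hist1h2bj, Hist1h2bl and Hist1h2bn. Hist1h2bj stood at 17.7 FPKM (STZ) and 3.25 FPKM (control) in Glut2L and was listed at 0 in both Glut2H libraries, with 59.4% of its windows shared. Hist1h2bh was at 18.99 FPKM (STZ) and 6.88 FPKM (control) in the libraries labelled Glut2L, against 0 FPKM (STZ) and 1.62 FPKM (control) in those labelled Glut2H, with 17.9% of its windows shared. That share is over a transcript of 1679 bases, and the deposited locus spans 436 bp. Hist1h2bl ran the other way: it was listed at 0 in both Glut2L libraries and stood at 9.50 FPKM (STZ) and 4.47 FPKM (control) in Glut2H, but 82.8% of its windows were shared.

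The H2A class was led by Hist2h2ac, at 26.8 FPKM (STZ) and 22.98 FPKM (control) in the libraries labelled Glut2L, against 41.5 FPKM (STZ) and 13.4 FPKM (control) in those labelled Glut2H, so that Glut2H STZ was highest. Scaled to equal library sums, Glut2L STZ was highest, at 41.1 FPKM against 28.97 FPKM in Glut2H STZ. Hist3h2a, in the small Hist3 cluster on chromosome 11, was at 11.9 FPKM (STZ) and 8.78 FPKM (control) in the libraries labelled Glut2L, against 9.803 FPKM (STZ) and 10.7 FPKM (control) in those labelled Glut2H. Hist1h2an was at 31.6 FPKM (STZ) and 12.9 FPKM (control) in Glut2L and at 14.9 FPKM in Glut2H control, and was listed at 0 in Glut2H STZ. With 85.8% of its windows in other genes and levels outside their own intervals in 3 libraries, this value is uncertain. Hist1h2af, with 79.7% of its windows shared, was at 9.15 FPKM in Glut2L STZ and listed at 0 in the other libraries. Hist1h2ab was at 9.14 FPKM in Glut2L STZ and 8.11 FPKM in Glut2H STZ and listed at 0 in both control libraries, and Hist2h2ab was at 2.89 FPKM (STZ) and 0.882 FPKM (control) in the libraries labelled Glut2L, against 8.61 FPKM (STZ) and 0 FPKM (control) in those labelled Glut2H.

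Replication-dependent H3 genes were all low, the highest deposited value being that of Hist2h3b in Glut2H STZ. Hist1h3e stood at 11.01 FPKM (STZ) and 6.56 FPKM (control) in the libraries labelled Glut2L, against 11.3 FPKM (STZ) and 4.07 FPKM (control) in those labelled Glut2H. Both STZ libraries exceeded both control libraries for this gene, an order lost with equal library sums, where Glut2H STZ had 7.88 FPKM against 9.499 FPKM in Glut2L control. Hist1h3i was at 5.28 FPKM (STZ) and 11.9 FPKM (control) in Glut2L and listed at 0 in both Glut2H libraries, with 87.6% of its windows shared. Hist1h3a stood at 5.16 FPKM (STZ) and 5.72 FPKM (control) in the libraries labelled Glut2L, against 6.27 FPKM (STZ) and 1.14 FPKM (control) in those labelled Glut2H, so that Glut2H control was lowest. Hist1h3g was at 5.12 FPKM (STZ) and 2.33 FPKM (control) in the libraries labelled Glut2L, against 12.6 FPKM (STZ) and 0 FPKM (control) in those labelled Glut2H.

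H4 genes differed among themselves although they encode the same protein. Hist1h4c (ENSMUSG00000060678, chromosome 13, 23697635 to 23698454, minus strand) was nearly level in the deposited values, at 198 FPKM (STZ) and 187 FPKM (control) in the libraries labelled Glut2L, against 187 FPKM (STZ) and 174 FPKM (control) in those labelled Glut2H, but with equal library sums the ratio of Glut2L to Glut2H was 2.34 in STZ mice and 1.897 in control mice. Without the highest rows in the sums the ratio was 1.02 in STZ mice and 1.04 in control mice. Hist1h4d (ENSMUSG00000061482, chromosome 13, 23581598 to 23582735, plus strand) stood at 379.7 FPKM (STZ) and 216 FPKM (control) in the libraries labelled Glut2L, against 151 FPKM (STZ) and 211 FPKM (control) in those labelled Glut2H, highest in Glut2L STZ, with 10.2% of its windows shared. That share is over a transcript of 1138 bases, and the deposited locus spans 393 bp. Hist1h4b was at 43.6 FPKM (STZ) and 2.78 FPKM (control) in the libraries labelled Glut2L, against 9.73 FPKM (STZ) and 11.2 FPKM (control) in those labelled Glut2H, its log2 ratio of 3.56 between STZ and control in Glut2L being the highest of the class in that comparison among members reaching 5 FPKM. Its row shares its deposited locus with another row, and 54.6% of the windows of Hist1h4b were shared, so this value is uncertain. Hist1h4k was at 18.8 FPKM (STZ) and 45.4 FPKM (control) in the libraries labelled Glut2L, against 2.82 FPKM (STZ) and 38.02 FPKM (control) in those labelled Glut2H, and Hist1h4i at 20.1 FPKM (STZ) and 11.1 FPKM (control) in the libraries labelled Glut2L, against 4.91 FPKM (STZ) and 11.1 FPKM (control) in those labelled Glut2H. Glut2H STZ was lowest for both, and 71.5% of the windows of Hist1h4k were shared. Hist1h4a was lower in both STZ libraries, at 1.54 FPKM (STZ) and 8.76 FPKM (control) in the libraries labelled Glut2L, against 0.595 FPKM (STZ) and 4.73 FPKM (control) in those labelled Glut2H. Hist1h4f and Hist1h4n, at 7.35 and 5.84 FPKM in Glut2H STZ, were both listed at 0 in the Glut2L libraries. Hist4h4, the one gene of the Hist4 cluster on chromosome 6, stood at 5.76 FPKM (STZ) and 3.598 FPKM (control) in the libraries labelled Glut2L, against 4.96 FPKM (STZ) and 3.28 FPKM (control) in those labelled Glut2H.

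By position, the replication-dependent genes fell into 3 groups with members on chromosome 13, with gaps of under 100000 bp inside a group, and 1 group each on chromosomes 3, 11 and 6. The largest, with 29 rows at chromosome 13, 23531044 to 23764414, holds Hist1h1e, Hist1h1c, Hist1h4d and Hist1h4c and summed to 1798 FPKM (STZ) and 1380.2 FPKM (control) in Glut2L, against 865 FPKM (STZ) and 938 FPKM (control) in Glut2H. The ratio of these sums between gates was 2.08 in STZ mice and 1.47 in control mice. The 5 rows at 22035113 to 22043676 summed to 42.4 FPKM (STZ) and 16.6 FPKM (control) in Glut2L, against 6.40 FPKM (STZ) and 11.6 FPKM (control) in Glut2H. The Hist2 cluster, 10 rows at chromosome 3, 96196588 to 96279001, ran the other way. It summed to 194 FPKM (STZ) and 145 FPKM (control) in Glut2L, against 304 FPKM (STZ) and 255 FPKM (control) in Glut2H, and Hist2h2bb was the main part of it. With equal library sums over all rows the Hist2 ratio of Glut2L to Glut2H was 1.40 in STZ mice and 1.01 in control mice, so that its direction turned. Without the highest rows in the sums it kept the deposited direction, at 0.609 in STZ mice and 0.555 in control mice. Hist3h2ba, on chromosome 11, was at 9.86 FPKM in Glut2L STZ and 2.62 FPKM in Glut2H STZ and listed at 0 in both control libraries.

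**Figure D3:**
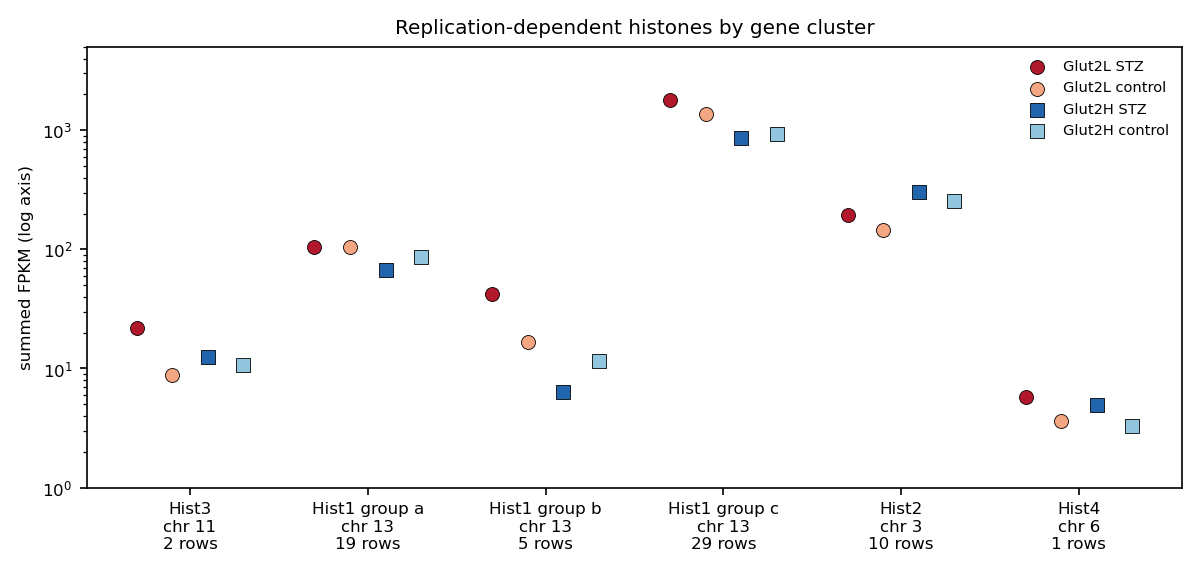
Summed FPKM (vertical log axis) of the replication-dependent rows in each group of neighbouring genes with members, with 1 point per library. In Hist1 group c, the 29 rows from 23531044 to 23764414, both Glut2L points lie above both Glut2H points, and in Hist2 both lie below. With equal library sums over all rows the Hist2 ratio of Glut2L to Glut2H is above 1, and without the highest rows it remains below 1.

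Replacement histones were led by H3f3b and H2afz. H3f3b (ENSMUSG00000016559, chromosome 11, 116021912 to 116027962, minus strand), one of a pair of genes for H3.3, stood at 493 FPKM (STZ) and 554 FPKM (control) in the libraries labelled Glut2L, against 462 FPKM (STZ) and 486 FPKM (control) in those labelled Glut2H. H3f3a, the other H3.3 gene, was at 17.4 FPKM (STZ) and 36.4 FPKM (control) in the libraries labelled Glut2L, against 70.6 FPKM (STZ) and 26.4 FPKM (control) in those labelled Glut2H, with Glut2H STZ highest and Glut2L STZ lowest. Scaling to equal sums put Glut2L control highest, at 52.7 FPKM, and Glut2H control lowest, at 21.5 FPKM. Of the H3f3a windows 12.3% occurred in other genes, and its row shares its deposited locus with others. Replacement genes made up 91.4% of all H3 transcripts by FPKM in Glut2L STZ and 92.3% in Glut2L control, against 91.0% in Glut2H STZ and 95.0% in Glut2H control. Shared windows ranged from 24.8% (Hist1h3d) to 93.9% (Hist1h3h) among replication-dependent H3 members, against 6.86% for H3f3b. The assignment of reads that match several copies is not known, so these parts of all H3 transcripts are uncertain.

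H2afz (ENSMUSG00000037894, chromosome 3, 137864487 to 137866922, plus strand) encodes H2A.Z.1, a variant found around transcription start sites. It stood at 391 FPKM (STZ) and 372 FPKM (control) in the libraries labelled Glut2L, against 337 FPKM (STZ) and 236 FPKM (control) in those labelled Glut2H, so that Glut2H control was lowest. H2afv, encoding the close relative H2A.Z.2, was at 22.03 FPKM (STZ) and 39.1 FPKM (control) in the libraries labelled Glut2L, against 14.5 FPKM (STZ) and 8.76 FPKM (control) in those labelled Glut2H, and both Glut2L libraries were above both Glut2H libraries. H2afz alone made up 62.9% of all H2A transcripts in Glut2L STZ and 65.2% in Glut2L control, against 66.5% in Glut2H STZ and 65.8% in Glut2H control. These parts too rest on an unknown assignment of reads that match several copies.

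H2afx encodes H2A.X, which is phosphorylated around DNA breaks, and its mRNA carries the stem-loop shown above. It stood at 16.8 FPKM (STZ) and 12.03 FPKM (control) in the libraries labelled Glut2L, against 16.8 FPKM (STZ) and 11.2 FPKM (control) in those labelled Glut2H. Both STZ libraries were above both control libraries, with log2 ratios of 0.45 in Glut2L and 0.54 in Glut2H, under the 2-fold line. That order was lost with equal library sums, Glut2H STZ having 11.8 FPKM against 17.4 FPKM in Glut2L control, while STZ remained above control within each gate. H2afj stood at 9.38 FPKM (STZ) and 8.49 FPKM (control) in the libraries labelled Glut2L, against 6.99 FPKM (STZ) and 5.19 FPKM (control) in those labelled Glut2H.

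Both macroH2A genes, whose products carry a large extra domain and are linked to silent chromatin, were higher in Glut2L. H2afy, for macroH2A1, was at 58.7 FPKM (STZ) and 62.9 FPKM (control) in the libraries labelled Glut2L, against 43.8 FPKM (STZ) and 42.1 FPKM (control) in those labelled Glut2H, and H2afy2, for macroH2A2, at 8.89 FPKM (STZ) and 10.04 FPKM (control) in the libraries labelled Glut2L, against 2.997 FPKM (STZ) and 3.38 FPKM (control) in those labelled Glut2H. H2afy3, the annotated pseudogene, stayed near the threshold, at 0.17 FPKM (STZ) and 0.608 FPKM (control) in the libraries labelled Glut2L, against 1.65 FPKM (STZ) and 0.82 FPKM (control) in those labelled Glut2H. The linker variant H1f0, which accumulates in differentiated cells, was at 54.02 FPKM (STZ) and 45.6 FPKM (control) in the libraries labelled Glut2L, against 23.9 FPKM (STZ) and 23.3 FPKM (control) in those labelled Glut2H. H1fx was at 13.7 FPKM (STZ) and 5.57 FPKM (control) in the libraries labelled Glut2L, against 0 FPKM (STZ) and 1.18 FPKM (control) in those labelled Glut2H. The order of the gates was thus the same for H1f0 as for Hist1h1c and Hist1h1d.

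The first comparison was that of the libraries labelled Glut2L with those labelled Glut2H. The series presents cells with little surface Glut2 as enriched for progenitors, while Slc2a2 RNA was higher in the libraries labelled Glut2L. Log2 ratios are of FPKM plus 1, and a gene was counted as different from 2-fold on that scale. In STZ mice 24 of 57 replication-dependent members (42.1%) were at least 2-fold higher in Glut2L and 10 (17.5%) at least 2-fold lower. Over all 17732 rows that reached 1 FPKM the shares were 20.5% higher and 15.9% lower. For rows with loci under 1000 bp, a closer match in length, they were 31.5% and 20.2%. Of the 24, 11 were listed at 0 in Glut2H. The median log2 ratio of the class was 0.62, or 0.53 over all 69 matched rows, against 0.16 over all rows and 0.38 for the replacement class, in which 3 of 11 members were higher and 2 lower. By family, 4 of 6 H1 and 9 of 15 H2B members were higher, with 0 and 2 lower, while H3 had 4 higher and 3 lower of 11. With deposited intervals also apart, 5 of the 57 were higher and 1 lower, against 0.868% and 3.71% of all rows. Each of these members was listed at 0 in the lower library, with an interval of 0 to 0 for Hist1h2an, Hist1h2bh and Hist1h2bj. A lower bound above 0 in the other library is then enough to set intervals apart. With equal library sums 41 were higher and 5 lower, against 51.97% and 8.995% of all rows so scaled. Of the 11 replacement members, 9 were then higher and 0 lower. Acinar markers, 9 genes, summed to 326 FPKM in Glut2L STZ against 3958 FPKM in Glut2H STZ, and their part in the result was not tested.

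In control mice the class differed less between the gates. Of the 57, 14 (24.6%) were at least 2-fold higher in Glut2L and 6 (10.5%) lower, against 18.1% and 16.9% of all rows and 31.4% and 21.9% of rows with loci under 1000 bp. The median was 0.10, the same to 2 digits as that of all rows. The replacement median was 0.62, with 3 of 11 members higher (H2afv, H2afy2 and H1fx) and 0 lower. H4 had 0 higher and 2 lower of 12, and H3 had 6 of 11 higher, 5 of them listed at 0 in Glut2H control. With deposited intervals also apart, 2 members were higher (Hist1h1t and Hist1h3i) and 0 lower, against 0.468% and 3.84% of all rows. Both were listed at 0 in Glut2H control. With equal library sums 25 were higher and 5 lower, against 40.4% and 11.3% of all rows so scaled. Of the 11 replacement members, 9 were then higher and 0 lower. In the deposited values the share of higher replication-dependent members was between those of all rows and of short rows in control mice. It was above both in STZ mice.

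The second comparison was that of STZ with control. The title states that diabetes raises progenitor proliferation, and replication-dependent histone genes are transcribed mainly in S phase. Polyadenylated forms are described for Hist1h1c, Hist1h2bc and Hist2h2be or their human orthologues. Whether the levels here follow S phase was not tested. In Glut2L 16 of 57 replication-dependent members (28.1%) were at least 2-fold higher after STZ and 4 (7.02%) lower, against 8.94% and 9.73% of all rows. For rows with loci under 1000 bp the shares were 25.6% and 27.3%, so that the share of higher members was close to that of short rows and the share of lower members was below it. The class median was 0.51, or 0.22 over all 69 matched rows, against 0.00 over all rows and -0.10 for the replacement class. H2A had 6 of 13 and H2B 7 of 15 members higher, with 0 lower in either, and H3 had 0 of 11 higher and 2 lower. Of the 16, 6 were listed at 0 in Glut2L control. None of the 5 highest genes reached 2-fold: the log2 ratio was 0.81 for Hist1h4d, 0.46 for Hist2h2bb, 0.22 for Hist1h1c, 0.09 for Hist1h4c and 0.06 for Hist1h1e. Acinar markers differed between these libraries too, 9 genes summing to 326 FPKM in Glut2L STZ against 2855 FPKM in Glut2L control, and their part in the result was not tested. With deposited intervals also apart, 3 members were higher (Hist3h2ba, Hist1h2ab and Hist1h4b) and 0 lower, against 0.282% and 0.361% of all rows. Of these, Hist3h2ba and Hist1h2ab were listed at 0 in Glut2L control. For Hist1h4b the intervals were only just apart, with a lower bound of 5.58 FPKM in Glut2L STZ and an upper bound of 5.30 FPKM in Glut2L control.

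In Glut2H 16 of 57 (28.1%) were at least 2-fold higher after STZ and 9 (15.8%) lower, against 8.44% and 12.1% of all rows and 17.5% and 25.1% of rows with loci under 1000 bp. Of the 16, 10 were listed at 0 in Glut2H control. The class median was 0.05, against -0.03 over all rows and 0.37 for the replacement class. None of the 6 H1 members was higher or lower by 2-fold in this gate, and the H1 median was -0.18. Of 11 replacement members, H3f3a was higher and H1fx lower, and the others were under 2-fold. In Glut2L H1fx was higher and H3f3a lower. With deposited intervals also apart, 4 replication-dependent members were higher and 1 lower, against 0.333% and 0.575% of all rows. Each of them was listed at 0 in the lower library. Red blood cell markers, 5 genes, were listed at 0 in Glut2H STZ and summed to 83.2 FPKM in Glut2H control, and their part in the result was not tested.

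**Figure D4:**
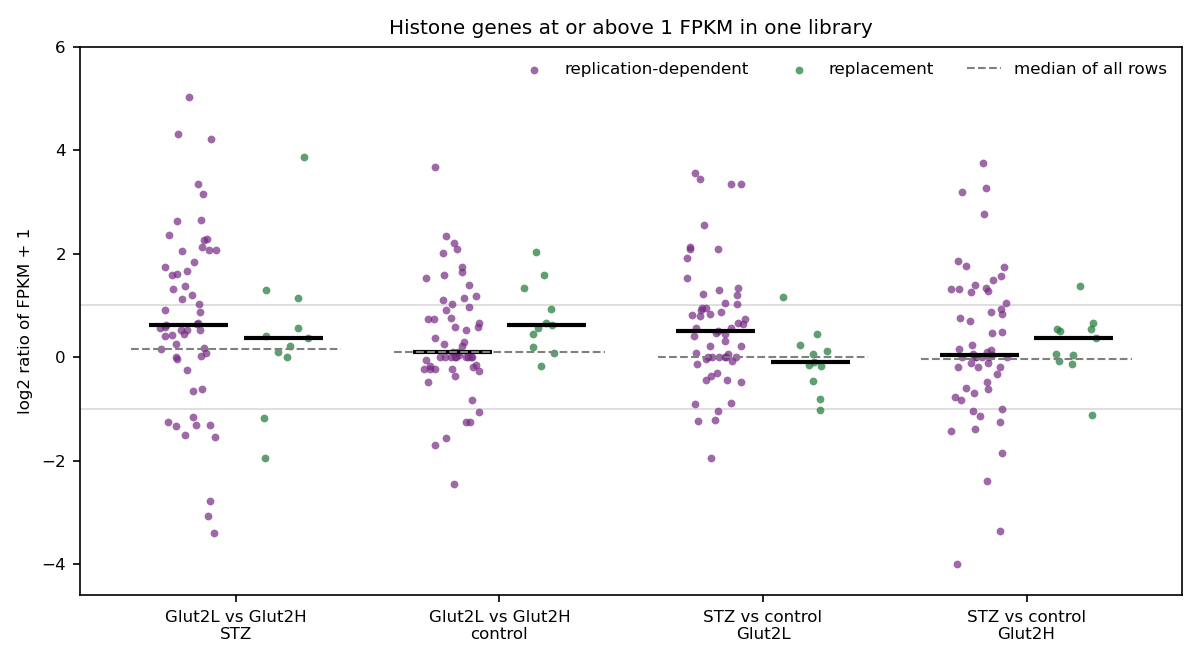
Log2 ratio of FPKM + 1 (vertical axis) of every member in the 4 comparisons, with replication-dependent members at left and replacement members at right in each, 1 point per gene. Black bars are class medians, dashed lines the median of all 17732 rows, and grey lines mark 2-fold; the replication-dependent median lies above the replacement median for Glut2L against Glut2H in STZ mice and for STZ against control in Glut2L, and below it in the other comparisons.

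The difference of the STZ effects, Glut2L minus Glut2H, had a median of 0.40 for the replication-dependent class and -0.16 for the replacement class, against 0.07 over all rows, and was not tested. After scaling to equal sums the medians were 0.70, 0.14 and 0.30 in the same order, so that the replacement median changed sign. Among the families the deposited median was highest for H2B, at 1.11, and lowest for H3, at -0.71. The 2 effects share no library, and each rests on 1 library per group.

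Genes for the synthesis, processing and decay of histone mRNA were mostly within 2-fold. Of 21 that reached 1 FPKM, 4 were at least 2-fold higher and 0 lower in Glut2L than in Glut2H in STZ mice, against 20.5% and 15.9% of all rows, so that the share of higher genes was close to that of all rows. In control mice 2 were higher and 1 lower, against 18.1% and 16.9% of all rows. Casp8ap2, which encodes FLASH, a factor for histone mRNA 3′ end processing, stood at 30.4 FPKM (STZ) and 7.99 FPKM (control) in the libraries labelled Glut2L, against 3.81 FPKM (STZ) and 5.87 FPKM (control) in those labelled Glut2H. Ccne2, encoding cyclin E2, which with Cdk2 drives histone gene transcription at the entry to S phase, was at 26.6 FPKM (STZ) and 23.03 FPKM (control) in the libraries labelled Glut2L, against 3.03 FPKM (STZ) and 5.42 FPKM (control) in those labelled Glut2H. Slbp itself was at 37.5 FPKM (STZ) and 23.9 FPKM (control) in the libraries labelled Glut2L, against 28.2 FPKM (STZ) and 19.5 FPKM (control) in those labelled Glut2H, with both STZ libraries above their controls but under 2-fold. Hinfp, a factor for H4 transcription, was at 5.94 FPKM (STZ) and 5.37 FPKM (control) in the libraries labelled Glut2L, against 2.07 FPKM (STZ) and 4.52 FPKM (control) in those labelled Glut2H, and Upf1, which acts in histone mRNA decay, at 13.4 FPKM (STZ) and 13.6 FPKM (control) in the libraries labelled Glut2L, against 5.801 FPKM (STZ) and 9.07 FPKM (control) in those labelled Glut2H. Lsm1 was at 3.52 FPKM (STZ) and 5.13 FPKM (control) in the libraries labelled Glut2L, against 2.397 FPKM (STZ) and 1.26 FPKM (control) in those labelled Glut2H. After STZ, 1 of the 21 was at least 2-fold higher in Glut2L (Casp8ap2) and 0 lower, against 8.94% and 9.73% of all rows. In Glut2H 0 were higher or lower, against 8.44% and 12.1% of all rows.

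Chaperones that deliver histones during replication included 10 measured genes. In Glut2L against Glut2H, 2 were higher and 0 lower in STZ mice (Ssrp1 and Rbbp4), against 20.5% and 15.9% of all rows, and 1 was higher and 0 lower in control mice, against 18.1% and 16.9%. After STZ, 2 were higher and 0 lower in Glut2L (Rbbp4 and Tonsl), against 8.94% and 9.73% of all rows. In Glut2H 0 were higher or lower, against 8.44% and 12.1% of all rows. Rbbp4, a subunit of chromatin assembly factor 1 and other complexes, stood at 34.8 FPKM (STZ) and 13.1 FPKM (control) in the libraries labelled Glut2L, against 8.68 FPKM (STZ) and 13.5 FPKM (control) in those labelled Glut2H. Ssrp1, of the FACT complex, was at 63.7 FPKM (STZ) and 60.4 FPKM (control) in the libraries labelled Glut2L, against 28.6 FPKM (STZ) and 34.7 FPKM (control) in those labelled Glut2H. Tonsl, which reads newly deposited histones, was at 9.11 FPKM (STZ) and 3.21 FPKM (control) in the libraries labelled Glut2L, against 7.67 FPKM (STZ) and 4.74 FPKM (control) in those labelled Glut2H.

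Chaperones and remodellers of replacement variants covered 14 rows, and in each comparison at most 1 was at least 2-fold higher and 1 lower. For Glut2L against Glut2H the shares of all rows higher and lower were 20.5% and 15.9% in STZ mice and 18.1% and 16.9% in control mice. For STZ against control they were 8.94% and 9.73% in Glut2L and 8.44% and 12.1% in Glut2H. In Glut2L against Glut2H these were Hjurp (higher) and Daxx (lower) in STZ mice, and Vps72 (higher) and Ep400 (lower) in control mice. After STZ, Ep400 was higher and Znhit1 lower in Glut2L, and Hira was lower in Glut2H. Daxx, a chaperone of H3.3, was at 23.1 FPKM (STZ) and 40.4 FPKM (control) in the libraries labelled Glut2L, against 62.5 FPKM (STZ) and 69.2 FPKM (control) in those labelled Glut2H, with both Glut2H libraries above both Glut2L libraries (with equal library sums the ratio of Glut2L to Glut2H was 0.812 in STZ mice and 1.04 in control mice). Without the highest rows in the sums the Daxx ratio was 0.354 in STZ mice and 0.567 in control mice. Hira, which deposits H3.3 at active genes, stood at 8.51 FPKM (STZ) and 10.8 FPKM (control) in the libraries labelled Glut2L, against 6.86 FPKM (STZ) and 18.1 FPKM (control) in those labelled Glut2H. Vps72, part of the complex that deposits H2A.Z, was at 37.9 FPKM (STZ) and 55.7 FPKM (control) in the libraries labelled Glut2L, against 22.4 FPKM (STZ) and 26.9 FPKM (control) in those labelled Glut2H. Znhit1, of the same complex, was at 31.9 FPKM (STZ) and 66.3 FPKM (control) in the libraries labelled Glut2L, against 30.5 FPKM (STZ) and 38.8 FPKM (control) in those labelled Glut2H. Ep400, an exchange factor for H2A.Z and H3.3, was at 50.1 FPKM (STZ) and 17.98 FPKM (control) in the libraries labelled Glut2L, against 38.6 FPKM (STZ) and 53.5 FPKM (control) in those labelled Glut2H, and Hjurp, the chaperone of the centromeric H3 variant, at 7.87 FPKM (STZ) and 5.205 FPKM (control) in the libraries labelled Glut2L, against 3.15 FPKM (STZ) and 5.67 FPKM (control) in those labelled Glut2H.

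S phase and mitosis genes did not move as one. Of 29, 7 were at least 2-fold higher and 2 lower in Glut2L than in Glut2H in STZ mice (median 0.23), against 20.5% and 15.9% of all rows. In control mice 6 were higher and 8 lower (median -0.13), against 18.1% and 16.9% of all rows. After STZ, 2 were higher and 2 lower in Glut2L (median 0.12), against 8.94% and 9.73% of all rows, and 1 was higher and 5 lower in Glut2H (median -0.36), against 8.44% and 12.1%. Gins2, part of the replicative helicase, stood at 17.99 FPKM (STZ) and 13.9 FPKM (control) in the libraries labelled Glut2L, against 6.500 FPKM (STZ) and 8.64 FPKM (control) in those labelled Glut2H, and Top2a, the topoisomerase of dividing cells, at 8.502 FPKM (STZ) and 6.13 FPKM (control) in the libraries labelled Glut2L, against 2.04 FPKM (STZ) and 2.44 FPKM (control) in those labelled Glut2H. Cdt1, which licenses replication origins, was at 3.29 FPKM (STZ) and 0.228 FPKM (control) in the libraries labelled Glut2L, against 5.27 FPKM (STZ) and 8.75 FPKM (control) in those labelled Glut2H, and Mcm3, a helicase subunit, at 0.934 FPKM (STZ) and 0.917 FPKM (control) in the libraries labelled Glut2L, against 3.76 FPKM (STZ) and 5.12 FPKM (control) in those labelled Glut2H. Cenpa, the centromeric H3 variant, was at 1.16 FPKM (STZ) and 1.22 FPKM (control) in the libraries labelled Glut2L, against 1.69 FPKM (STZ) and 7.06 FPKM (control) in those labelled Glut2H, and Ccnb1, cyclin B1, at 2.197 FPKM (STZ) and 7.14 FPKM (control) in the libraries labelled Glut2L, against 0.234 FPKM (STZ) and 1.24 FPKM (control) in those labelled Glut2H. The Glut2L STZ library was highest for Gins2 and Top2a, as it was for the replication-dependent sum, and not for Cdt1, Mcm3, Cenpa or Ccnb1.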

How the data were processed

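Total RNA depleted of ribosomal RNA (TruSeq Stranded with Ribo-Zero Gold, per the labels' protocols) was sequenced from 4 sorted populations, 1 library each. Per the submitters' processing notes, TopHat2, SAMtools and Cuffdiff were used on GRCm38 (mm10); the sources used here give no versions, annotation or library normalization. The values used are FPKM with interval bounds and a status per row, as deposited by the authors. Per-sample tables held the same FPKM (0 of 156680 values differed). Loci in the table count from 0 and are printed here from 1 or from GENCODE M21.

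Rows with status OK in all 4 libraries and at least 1 FPKM in one were kept (17732). Log2 ratios used a pseudocount of 1 FPKM, and calls a 2-fold difference. Without replicates no test was run. The code that makes the 2-fold calls was tested on simulated data, which gives no error rate for these libraries. Members, gene lists and comparisons were chosen with earlier results of these data known. Genes were named by level (3 per family), by log2 ratio (3 highest and 3 lowest per comparison, at least 5 FPKM), and as replacement or listed companion genes; some further members were named after their values were seen. Promoters are from RefSeq (GRCm38.p6). Analysis used Python 3.11.15 with pandas 2.3.3.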

Additional observations from a re-analysis of the deposited data

Results flagged for a closer look

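In 5 of 68 members (7.35%) the STZ effect was at least 2-fold up in one gate and at least 2-fold down in the other, against 464 of 17732 rows (2.62%). With 1 library per group the difference was not tested for any of them. For Hist1h2an the STZ effect in Glut2L exceeded that in Glut2H by 5.22 on the log2 scale. Hist1h2bh, at 18.99 FPKM (STZ) and 6.88 FPKM (control) in the libraries labelled Glut2L, against 0 FPKM (STZ) and 1.62 FPKM (control) in those labelled Glut2H, gave a difference of 2.73. Hist1h2ae, at 3.22 FPKM (STZ) and 0.701 FPKM (control) in the libraries labelled Glut2L, against 0 FPKM (STZ) and 1.196 FPKM (control) in those labelled Glut2H, gave 2.44. H1fx gave 2.28, and H3f3a, the one replacement core histone among them, gave -2.41. With equal library sums Hist1h2an and Hist1h2bh alone of the 5 were still past 2-fold in opposite directions. These are 2 of 68 members, against 493 of 17732 rows, so that the share of members was then close to that of all rows. H1fx and H3f3a share their deposited loci with other rows.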

How the results depend on the processing

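Of 208 values under alternatives, 174 moved by no more than 1.5 times (counts and ratios) or 0.585 (log2 medians, which can be a large part of a small median), 32 moved further or to 0, and 2 changed sign. Counts of replication-dependent members at least 2-fold higher and lower are given here in that order. In STZ mice, Glut2L against Glut2H gave 24 and 10. They became 41 and 5 with FPKM scaled so that all libraries had equal sums, and 5 and 1 when the deposited intervals also had to be apart. Most members with intervals apart were listed at 0 in the lower library. The counts became 11 and 2 without the 28 members listed at 0 in any library, an alternative chosen after seeing the data. Of these 28, 27 are replication-dependent, so such counts are over a smaller class. The lower count was also 5 with a pseudocount of 5. Shares of all rows with a pseudocount of 5 or without rows listed at 0 are not given. In control mice 14 and 6 became 3 and 2 with a pseudocount of 5, 2 and 0 with intervals apart, and 5 and 2 without members listed at 0, and the higher count became 25 with equal sums. For STZ against control in Glut2L, 16 and 4 became 9 and 2 with a pseudocount of 5, 3 and 0 with intervals apart, and 5 and 2 without members listed at 0. In Glut2H, 16 and 9 became 5 and 2, 4 and 1, and 5 and 4 under the same settings. Equal sums also moved the class medians of Glut2L against Glut2H to 1.57 in STZ mice and 0.77 in control mice, as they moved the median of all rows to 1.06 and 0.76. With the highest rows left out of the sums, the counts in the 4 comparisons were 24 and 10, 13 and 6, 15 and 4, and 16 and 10. The shares of all rows so scaled were 19.2% and 16.4%, 17.3% and 17.4%, 8.58% and 9.97%, and 8.40% and 12.4%. The control median turned to -0.0036 with the median of all rows set to 0, and the STZ median in Glut2H turned to -0.035 without members listed at 0. With no filter the median became 0 for Glut2L against Glut2H in control mice and for STZ against control in Glut2H, where the difference between the classes also became 0; equal sums gave 0 for the STZ median in Glut2H as well. The cause was not tested. The ratio of replication-dependent to replacement sums, without rows that share their locus, was 1.85 in Glut2L STZ and 1.38 in Glut2L control, against 1.06 in Glut2H STZ and 1.27 in Glut2H control, and without Hist2h2bb (chosen after seeing the data) 1.87, 1.36, 1.05 and 1.29 in the same libraries. No paired analysis was possible because each group has 1 library and the labels carry no replicate numbers, and for the same reason no replicate could be left out. Median levels of the replication-dependent members were 3.17 to 7.95 FPKM per library. For the 41 that reached 5 FPKM in a library, the counts were 18 and 7, 10 and 4, 11 and 3, and 11 and 6. Over all 11897 such rows they were 2458 and 2020, 2341 and 2051, 956 and 1062, and 967 and 1269. At an unknown read depth a level of 0 does not show that a gene was silent.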

Other observations

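Other nuclear or non-polyadenylated RNAs, which the same library type captures, did not share one order of libraries. Rn7sk, the 7SK small nuclear RNA that restrains transcription elongation, stood at 334835 FPKM (STZ) and 349320.0 FPKM (control) in the libraries labelled Glut2L, against 167548 FPKM (STZ) and 251942 FPKM (control) in those labelled Glut2H. Rpph1, the RNA of ribonuclease P, stood at 97348 FPKM (STZ) and 125729 FPKM (control) in the libraries labelled Glut2L, against 56031 FPKM (STZ) and 75452 FPKM (control) in those labelled Glut2H, and Neat1, the RNA of nuclear paraspeckles, at 586 FPKM (STZ) and 642 FPKM (control) in the libraries labelled Glut2L, against 381 FPKM (STZ) and 382 FPKM (control) in those labelled Glut2H. For these 3 both Glut2L libraries were above both Glut2H libraries, as for the replication-dependent sum, but Glut2L control was highest. Malat1, a nuclear long noncoding RNA, stood at 9559 FPKM (STZ) and 9201 FPKM (control) in the libraries labelled Glut2L, against 11820.0 FPKM (STZ) and 10812 FPKM (control) in those labelled Glut2H, with Glut2H higher. Rmrp, the RNA of a mitochondrial and nucleolar processing enzyme, stood at 10510.4 FPKM (STZ) and 14967 FPKM (control) in the libraries labelled Glut2L, against 14739.5 FPKM (STZ) and 14729 FPKM (control) in those labelled Glut2H, with Glut2L STZ lowest. Scaling to equal sums made Malat1 higher in Glut2L in both treatments and Rmrp higher in STZ mice, as it already was in control mice. Malat1 then had 14657 FPKM (STZ) and 13322 FPKM (control) in Glut2L, against 8256 FPKM (STZ) and 8822 FPKM (control) in Glut2H. Terc, the telomerase RNA, was at 3.097 FPKM in Glut2L STZ, 0.503 FPKM in Glut2L control and 1.39 FPKM in Glut2H control and listed at 0 in Glut2H STZ. Of 8 rows for histones known from testis or oocytes, 7 were listed at 0 in all 4 libraries, the exception being Hist1h1t.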
